A study of Mus musculus with 9 samples.

Results

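The MS4A family comprises small membrane proteins that cross the membrane repeatedly, most of them in cells of the immune system. Bulk RNA-seq of injected mouse brain listed 12 genes of the family among 1710 genes in the deposited table. They were found by the gene symbol column, taking symbols that start with Ms4a whatever their capitals; 9 of the 12 symbols were written with the capitals of Ms4a. That column carried the symbol Ms4a4d on 4 different rows and human-style capitals on others, so each row was named here by its Ensembl identifier through GENCODE M21. The 12 rows were then Ms4a1, Ms4a4a, Ms4a4b, Ms4a4c, Ms4a4d, Ms4a6b, Ms4a6c, Ms4a6d, Ms4a7, Ms4a8a, Ms4a14 and the gene model Gm8369, which the table calls Ms4a4d. The 4 rows under that symbol were Ms4a4c (ENSMUSG00000024675), Ms4a4b (ENSMUSG00000056290), Ms4a4d (ENSMUSG00000024678) and Gm8369 (ENSMUSG00000058470). Of the 19 genes that GENCODE M21 names Ms4a, 11 were listed and 8 were not analysed here.

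The libraries were total RNA from wild-type (WT) mice, all taken from tissue labelled brain ctx at the injected site 10 days after a stereotaxic injection. The virus was AAV9, a serotype of adeno-associated virus used as a gene transfer vector, and the labels name LowDose and HighDose without amounts. The PBS group is named for a buffer, although its label carries the same text on viral injection as the other groups. Each group had 3 libraries. No label says whether 1 group's libraries were separate mice, so p-values measure the spread between these libraries, which may be technical. The study asked how brain gene expression changes early after AAV at different doses. The estimated counts behind the genes below were scaled by library totals of 18.3 to 23.7 M reads into CPM, which are counts set to an equal library size, and 3 counts in a library then equal 0.126 to 0.164 CPM. Of 9 markers of cortical excitatory neurons none was listed, whereas all 11 markers of striatal medium spiny neurons were. Every listed gene differed at least 2-fold in mean level between some pair of groups. A gene that is not listed may therefore still be expressed, so the missing cortical markers do not show that these neurons were absent. The striatal markers summed to 848 to 1269 CPM in PBS, 297 to 702 CPM in LowDose and 285 to 336 CPM in HighDose. All 11 were called lower in HighDose than in PBS, as were 10.7% of all genes tested, from Tac1 at -1.23 ± 0.25 to Six3 at -3.48 ± 0.50 on the log2 scale. Their part in the results below was not tested.

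Members of the family act in immune cells mainly as partners of receptors. Ms4a1 encodes CD20, the B cell surface protein, and mouse Ms4a4b encodes a T cell protein that associates with the receptor GITR (Tnfrsf18). In humans the MS4A4A and MS4A6A gene region is linked to Alzheimer's disease and to the level of soluble TREM2, a receptor of microglia, and MS4A4A sits on macrophages. In mouse brain, Ms4a7 is known as a marker of macrophages at the brain's borders and of macrophages derived from bone marrow, and is low in resting microglia. Ms4a6b, Ms4a6c and Ms4a6d are close relatives known from mouse monocytes and macrophages, and Ms4a4c is close in sequence to Ms4a4b.

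All 12 genes lay on chromosome 19 (mm10) in 1 cluster, with 7 on the plus strand and 5 on the minus strand. From low to high coordinates, the cluster ran from Ms4a8a (chr19:11067471-11081102, minus strand) through Ms4a1 (chr19:11249675-11266241, minus), Ms4a14 (chr19:11301249-11314454, minus), Ms4a7 (chr19:11321039-11336146, minus) and Ms4a4a (chr19:11375523-11392790, plus). It went on with Ms4a4c (chr19:11404770-11427246, plus), Ms4a4b (chr19:11443553-11467055, plus), Ms4a6c (chr19:11469366-11482192, plus), Gm8369 (chr19:11485938-11512577, plus), Ms4a6b (chr19:11516512-11531256, plus), Ms4a4d (chr19:11536801-11558467, plus) and Ms4a6d (chr19:11586604-11604849, minus). The 5 genes with the highest HighDose levels all lay in the stretch from Ms4a4c to Ms4a6d.

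The Ms4a6 pair, Ms4a6c and Ms4a6b, shares a short pattern, and Ms4a4c, Ms4a4b and Gm8369 share a different pattern. Neither is particular to these genes, since Ms4a7 also carries the pattern of the pair and Ms4a14 the other. Ms4a4a and Ms4a4d carry neither, and had 47.3 to 51.9% identity with Ms4a4c, Ms4a4b and Gm8369, which resemble each other. The likeness within the Ms4a6 pair is local, with 47.4% identity over the full 250 bases. Shown are the promoters of 5 genes, the Ms4a6 pair, Ms4a4c, Ms4a4b and Gm8369. Each is the 250 bases before the RefSeq transcript start (build GRCm38.p6, plus strand), for Ms4a6c chr19:11469118-11469367, Ms4a6b chr19:11518309-11518558, Ms4a4c chr19:11407411-11407660, Ms4a4b chr19:11443308-11443557 and Gm8369 chr19:11491788-11492037. Capitals mark GAAANNGAA, a paired pattern of the kind bound by interferon regulatory factors, in the Ms4a6 pair, and GAGGAA, the core bound by the myeloid and B cell factor PU.1 and its relatives, in the others.
Ms4a6c: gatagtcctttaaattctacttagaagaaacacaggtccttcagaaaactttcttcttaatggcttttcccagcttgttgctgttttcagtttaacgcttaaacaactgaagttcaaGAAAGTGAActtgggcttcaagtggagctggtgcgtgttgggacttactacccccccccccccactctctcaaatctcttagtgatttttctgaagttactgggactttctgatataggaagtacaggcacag
Ms4a6b: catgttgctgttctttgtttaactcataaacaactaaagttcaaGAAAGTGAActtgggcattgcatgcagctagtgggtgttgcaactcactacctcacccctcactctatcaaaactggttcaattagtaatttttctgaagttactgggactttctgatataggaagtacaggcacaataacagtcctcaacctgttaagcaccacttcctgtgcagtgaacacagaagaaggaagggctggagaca
Ms4a4c: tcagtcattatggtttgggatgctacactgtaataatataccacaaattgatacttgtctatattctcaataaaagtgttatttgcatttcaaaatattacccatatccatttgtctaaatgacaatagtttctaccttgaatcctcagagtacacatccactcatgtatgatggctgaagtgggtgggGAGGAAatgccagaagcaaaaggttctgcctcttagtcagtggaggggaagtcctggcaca
Ms4a4b: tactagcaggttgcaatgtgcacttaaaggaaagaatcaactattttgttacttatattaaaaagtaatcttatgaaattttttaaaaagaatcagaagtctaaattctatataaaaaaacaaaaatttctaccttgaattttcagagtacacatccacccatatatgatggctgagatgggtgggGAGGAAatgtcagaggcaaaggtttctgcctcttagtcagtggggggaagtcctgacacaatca
Gm8369: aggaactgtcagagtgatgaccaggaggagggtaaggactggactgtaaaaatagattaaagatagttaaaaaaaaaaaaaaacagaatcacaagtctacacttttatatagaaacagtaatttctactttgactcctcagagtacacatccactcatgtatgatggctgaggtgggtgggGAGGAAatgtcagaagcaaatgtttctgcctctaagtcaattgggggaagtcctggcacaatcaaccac

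The letters of the patterns were chosen after these promoters had been read, and a match is a description of letters. The shares of all promoters given below therefore cannot test whether a pattern is more frequent in the family. Promoters that resemble each other, and the 2 starts of Ms4a7, are also not independent matches. On both strands of the 250 bases, GAAANNGAA occurred in 4 of 11 promoters of 10 of the genes (Ms4a7 has 2 starts), against 7.13% of all 32851 promoters. Those were Ms4a6b and Ms4a6c, both with GAAAGTGAA, beginning at -206 and -133 relative to the start, and both starts of Ms4a7. The core of the interferon-stimulated response element, which is GAAANNGAA with another A after it, occurred in 0 of 11 promoters and in 2.98% of all. The pattern TTCNNNGAA, which STAT factors bind, occurred in 0 of 11 and in 7.02% of all. GAGGAA occurred in 4 of 11 promoters, those of Ms4a4c, Ms4a4b, Gm8369 and Ms4a14, against 23.3% of all. In Ms4a4c, Ms4a4b and Gm8369 it began at -61, -64 and -69. The promoters of these 3 genes resembled each other, with 70.8% identity between Ms4a4c and Ms4a4b, 66.1% between Ms4a4c and Gm8369 and 70.8% between Ms4a4b and Gm8369. Between Ms4a6c and Ms4a6b, a best local alignment of 182 columns had 83.5% identity and a shared run of 48 bases. Over the full 250 bases all other pairs, that pair included, had 45 to 53.4% identity. Ms4a6d and Ms4a1 were not in the promoter table.

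**Figure D1:**
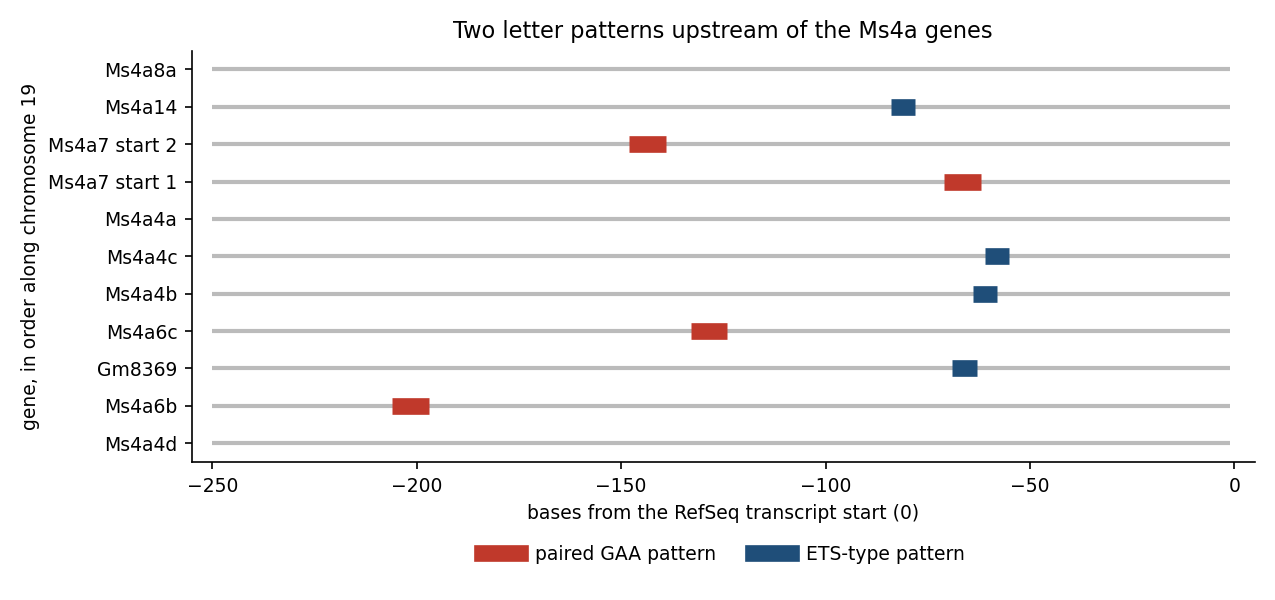
Positions of 2 short letter patterns in the 250 bases before the start of transcription (x axis, bases from the RefSeq start), with 1 line for each gene or start in order along chromosome 19. Red boxes are GAAANNGAA, beginning at -133 in Ms4a6c and -206 in Ms4a6b, and blue boxes are GAGGAA, beginning at -61 in Ms4a4c, -64 in Ms4a4b and -69 in Gm8369.

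HighDose brains had far more RNA of the family than PBS brains. The summed level of the 12 genes was 85.7, 136.9 and 158.2 FPKM (fragments scaled by transcript length and library size) in the HighDose libraries, against 2.61, 2.61 and 2.63 FPKM in the PBS libraries. Of the 11 genes that passed the low-count filter, all 11 were called higher in HighDose than in PBS by edgeR's quasi-likelihood test, with Benjamini-Hochberg adjustment over 1583 listed genes, and every HighDose library lay above every PBS library for all 11. Among all genes tested, 86.3% were called higher, 10.7% were called lower and 85.8% had such separated libraries, so a count of 11 of 11 is near this background. Every listed gene, 1710 of 1710, had a mean FPKM that differed at least 2-fold between some pair of groups, and 1581 of them differed so between HighDose and PBS, so being listed repeats part of this test. The members' median log2 change was 4.60, against 1.90 over all genes tested. In whole tissue, more cells of a type and more RNA per cell cannot be told apart. For 8 of the 11 genes the level needed by the filter, 0.461 CPM, was reached in at most 1 PBS library, so they passed through their HighDose values.

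Ms4a4c, known from mouse immune cells as an interferon-induced gene, had the highest HighDose level of the family and the largest fitted change against PBS of all 1583 genes tested. It had 42.9, 70.4 and 82.9 FPKM in the HighDose libraries, against 0.08, 0 and 0.03 FPKM in the PBS libraries. The groups were far apart, since the PBS libraries together held 2 counts and the HighDose libraries 3019 counts. The ratio of CPM was 1370, with a 95% interval for counting error of 379 to 11321 (adjusted p = 1.72e-22, edgeR quasi-likelihood test). The fitted log2 change was 10.19 ± 0.49 (SE), and 9.66 to 10.59 with each library left out in turn. The interferon-stimulated gene Mx1 had 9.71 ± 0.42. The top rank of Ms4a4c thus rests on few PBS counts and is not settled, and against LowDose its rank was 4.

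Ms4a4b, the T cell protein that associates with GITR, followed at a lower level. It had 2.14, 5.03 and 4.96 FPKM in the HighDose libraries, against 0, 0 and 0.04 FPKM in the PBS libraries. HighDose replicate 1 held less than the other HighDose libraries, and all were above PBS. The log2 change was 7.47 ± 0.55 (SE, n = 3 libraries in each group, adjusted p = 2.61e-16 by edgeR), and all 4 PBS counts came from replicate 3. Without that library the PBS counts are 0, and the fitted log2 change was 11.08. Of 17 T cell markers 15 were listed, and all 15 were called higher in HighDose, near the 86.3% of all genes tested. They summed to 29.1 to 54.5 CPM in HighDose and 1.97 to 3.04 CPM in PBS. Cd3d, a CD3 chain, had 105 counts over the HighDose libraries and 0 over those of PBS, and the kinase Zap70 changed least, by 1.89 ± 0.43. Tnfrsf18, the GITR gene, changed by 1.65 ± 0.49 on the log2 scale (adjusted p = 0.00169 by edgeR), a call that ended at -0.04 under TMM scaling within the listed genes. The part of these cells in the level of Ms4a4b was not tested.

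Ms4a4b and Ms4a4c share a doubt about read assignment. Of the 50-base windows in Ms4a4c transcripts, 7.73% also occur in Ms4a4b transcripts, and 1.53% of those of Ms4a4b occur in Ms4a4c. They were the only members with counts that are not whole, in HighDose replicates 1 and 3. Ms4a4c had 719.83 and Ms4a4b 172.17 estimated counts in replicate 1, and 1254.89 and 383.11 in replicate 3. The sum of both genes was whole within 0.005 counts in each library, 892 in replicate 1 and 1638 in replicate 3. How reads from the shared windows are divided between this pair can therefore not be settled by the counts. To that extent the levels of both genes are given as uncertain. Ms4a6c shares 10.5% of its windows with other genes, and 5.85% of its windows with Ms4a6b, yet its counts were whole in all libraries.

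The 3 Ms4a6 genes were the only members to reach the filter's level of 0.461 CPM in all 9 libraries. Ms4a6c had 12.3, 20.8 and 23.5 FPKM in the HighDose libraries, against 0.36, 0.34 and 0.35 FPKM in the PBS libraries. Its PBS libraries lay close together, and its log2 change was 5.74 ± 0.32 (SE, n = 3 in each group, adjusted p = 1.2e-20 by edgeR). Ms4a6b had 10.2, 18.6 and 18.7 FPKM in the HighDose libraries, against 0.39, 0.48 and 0.60 FPKM in the PBS libraries. The groups were far apart, with a log2 change of 4.89 ± 0.31 (adjusted p = 1.2e-18 by edgeR). Ms4a6d had 12.9, 14.3 and 20.2 FPKM in the HighDose libraries, against 0.85, 1.30 and 0.80 FPKM in the PBS libraries. It had the highest PBS level of the family, and its log2 change was 4.04 ± 0.30 (adjusted p = 3.01e-16 by edgeR).

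Ms4a7, Ms4a4a and Ms4a8a were higher in HighDose by 2.84 to 3.07 on the log2 scale. Ms4a7, the marker of border and bone-marrow-derived macrophages, had 1.38, 3.48 and 3.70 FPKM in the HighDose libraries, against 0.25, 0.29 and 0.60 FPKM in the PBS libraries. All HighDose libraries were above all PBS libraries, with a log2 change of 3.07 ± 0.48 (adjusted p = 2.11e-07 by edgeR). Ms4a4a, whose human counterpart sits on macrophages, had 0.99, 1.37 and 1.19 FPKM in the HighDose libraries, against 0.33, 0.06 and 0.11 FPKM in the PBS libraries. The groups did not overlap, and the log2 change was 2.84 ± 0.66 (adjusted p = 0.000142 by edgeR). Ms4a8a, known from mouse macrophages and epithelium, had 1.17, 1.11 and 0.60 FPKM in the HighDose libraries, against 0.25, 0.04 and 0.09 FPKM in the PBS libraries. It was lowest of the HighDose libraries in replicate 3, still above PBS, and the log2 change was 2.91 ± 0.66 (adjusted p = 9.34e-05 by edgeR). The calls of the last 2 genes ended when libraries were scaled within the listed genes: the changes were then 1.18 to 1.21 for Ms4a4a, with adjusted p of 0.0972 to 0.106, and 1.29 to 1.33 for Ms4a8a, with adjusted p of 0.0936 to 0.102. Such scalings take the listed genes as level on the whole, whereas 1581 of the 1710 differed at least 2-fold between HighDose and PBS. They therefore cannot decide these 2 calls. PBS replicate 1 held 5 of the 8 PBS counts of each of the 2 genes, and without it the changes were 3.70 for Ms4a4a and 3.77 for Ms4a8a.

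Markers of other myeloid cells moved in the same libraries. Of 12 monocyte markers, 8 were listed and all 8 were called higher in HighDose, a count to read against the 86.3% of all genes tested, summing to 148 to 256 CPM in HighDose and 5.12 to 6.78 CPM in PBS. Ly6c2, a surface protein of inflammatory monocytes, changed most, by 9.30 ± 0.39, and Cd14, a receptor for bacterial lipopolysaccharide, least, by 0.70 ± 0.32. Of 12 border macrophage markers, 3 were listed: Siglec1, a sialic acid receptor, changed by 5.86 ± 0.33 and Clec12a by 1.86 ± 0.45, while Cd163, a scavenger receptor, fell by 1.59 ± 0.49 on the log2 scale. These 3 summed to 22.3 to 40.1 CPM in HighDose and 2.24 to 3.05 CPM in PBS. Of 15 activated microglia markers, 10 were listed and 10 were called higher, from Gpnmb at 0.94 ± 0.30 to the chemokine Ccl4 at 5.90 ± 0.60, summing to 108 to 163 CPM in HighDose and 38.4 to 43.4 CPM in PBS. Of 12 homeostatic microglia markers, 5 were listed, with 2 called higher and 3 called lower, from Fcrls at -1.38 ± 0.23 to Olfml3 at 1.32 ± 0.22. Their summed level was 136 to 144 CPM in HighDose and 116 to 147 CPM in PBS. Scaling libraries by TMM within the listed genes moved the median change of all genes tested from 1.90 to 0.19. With it, 6 of the 8 monocyte markers were called higher and Cd14 lower, at -0.99, 6 of the 10 activated microglia markers higher and 3 lower (Gpnmb at -0.79), and all 5 homeostatic markers lower, Olfml3 at -0.37. Siglec1 stayed called higher and Clec12a, at 0.14, was not called. The Ms4a medians under this scaling were 2.97 for the members and 0.19 for all genes. TMM takes most genes as unchanged, whereas 1581 of the 1710 listed genes differed at least 2-fold between HighDose and PBS. The calls that it ended or turned therefore cannot decide a direction. The part of any of these cells in the levels of the family was not tested.

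Ms4a1, the gene of CD20, was low but present. It had 0.33, 0.37 and 0.56 FPKM in the HighDose libraries, against 0, 0.02 and 0.01 FPKM in the PBS libraries. That is 87 against 2 counts, a ratio of 39.5 with a counting interval of 10.6 to 331 (adjusted p = 1.82e-07 by edgeR). Of 11 B cell markers, 8 were listed and 5 tested, of which 4 were called higher, summing over the 8 to 5.43 to 14.4 CPM in HighDose and 0.872 to 1.38 CPM in PBS. Cd79a, a chain of the B cell receptor, changed by 3.16 ± 0.62, the least of those called, and Spib, a factor of B cells, had 144 counts in HighDose and 2 in PBS. Among other cell types, all 10 markers of NK and cytotoxic cells were called higher, summing to 63.5 to 117 CPM in HighDose and 0.533 to 1.09 CPM in PBS, from Eomes at 2.57 ± 0.56 to Gzmb, the protease granzyme B, at 8.57 ± 0.45. Of 9 dendritic cell markers 6 were listed and 4 were tested, all 4 called higher, from H2-DMb2 at 3.54 ± 0.63 to the chemokine receptor Ccr7 at 6.60 ± 0.58. As with the T cell markers, such counts lie near the 86.3% of all genes tested. Of 9 mast cell and basophil markers 1 was listed, Hdc, at 1.06 ± 0.36, and of 8 neutrophil markers 0 were listed. Every listed gene differed at least 2-fold between some pair of groups, so markers that are not listed do not show that the cells were absent. Under TMM scaling within the listed genes 14 of 15 T cell, 9 of 10 NK and cytotoxic, 4 of 5 B cell and 3 of 4 dendritic cell markers were called higher, and Hdc, at -0.65, was not called. The part of these cells in the level of Ms4a1 was not tested.

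The remaining members had few counts in PBS. Ms4a4d had 0.87, 0.54 and 1.26 FPKM in the HighDose libraries, against 0.07, 0.03 and 0 FPKM in the PBS libraries. That is 91 against 3 counts, a ratio of 27.5 with a counting interval of 9.13 to 136 (adjusted p = 5.74e-07 by edgeR). Ms4a14 changed by 3.39 ± 0.70 (adjusted p = 2.77e-05 by edgeR), with 0.20, 0.28 and 0.32 FPKM in the HighDose libraries, against 0.03, 0.05 and 0 FPKM in the PBS libraries. Gm8369 did not pass the filter and was not tested. It had 8, 11 and 10 counts in the HighDose libraries and 0 in all PBS libraries, and the 95% counting interval of the ratio began at 6.69.

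**Figure D2:**
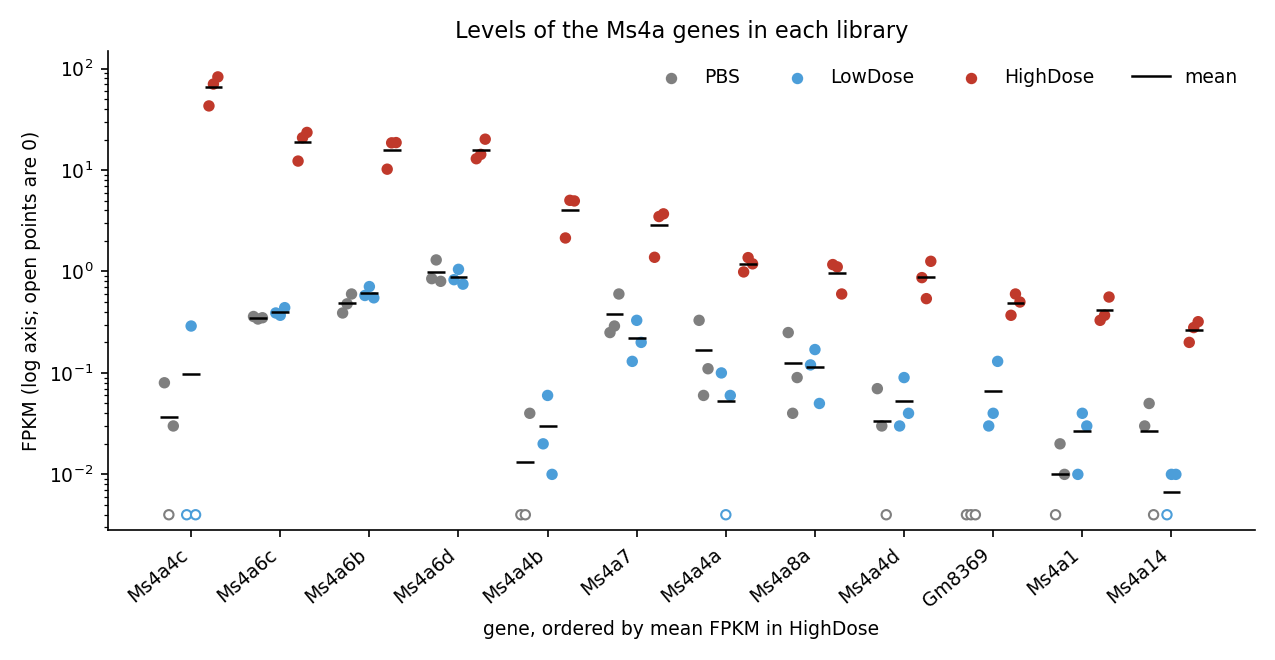
FPKM of the 12 Ms4a genes in each library (log axis), in the order PBS, LowDose and HighDose for each gene. Points are libraries, black bars are the means of 3 libraries and open points are libraries at 0. The HighDose points of Ms4a4c, at 42.9 to 82.9 FPKM, stand highest, and those of Ms4a14, at 0.20 to 0.32 FPKM, stand lowest.

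The make-up of the family changed as well as its sum. In HighDose, Ms4a4c gave 51.3 ± 1.18% of the summed FPKM (SD, n = 3), against 0 to 3.07% in the PBS libraries. Ms4a6d, the leading member in PBS, gave 12.7 ± 2.33% of it in HighDose and 37.6 ± 10.6% in PBS. FPKM of Ms4a4c rests on the transcript length behind it, 656 to 734 bp, while its annotated transcripts run from 361 to 1723 bp. That of Ms4a4b rests on 2768 to 3520 bp, with annotated transcripts of 550 to 4750 bp. By counts, which take no length into account, Ms4a4c gave 28.7 to 29.9% of the family in HighDose and 0 to 1.52% in PBS. In HighDose the order by mean FPKM was Ms4a4c, then Ms4a6c, Ms4a6b and Ms4a6d with overlapping libraries, then Ms4a4b and Ms4a7 with overlapping libraries. Next came Ms4a4a, Ms4a8a, Ms4a4d, Gm8369 and Ms4a1, each overlapping its neighbour, and then Ms4a14. In PBS, Ms4a6d lay above all others, Ms4a6b, Ms4a7 and Ms4a6c overlapped each other in turn, and the rest averaged 0.167 FPKM or less.

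**Figure D3:**
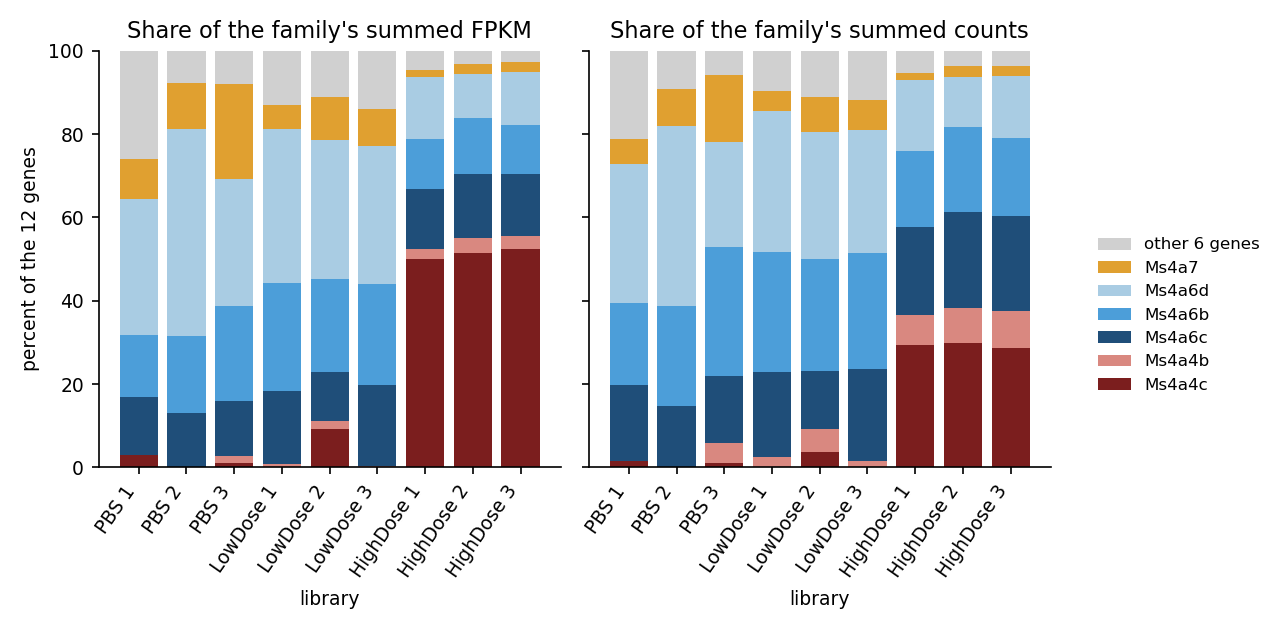
Share of the family's summed FPKM (left) and summed counts (right) held by each gene in each of 9 libraries, in percent. Dark red, Ms4a4c, fills 51.3% of the FPKM on average in the HighDose libraries and 28.7 to 29.9% of the counts, whereas Ms4a6d, the palest blue, holds the largest share in PBS on average.

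LowDose brains had no Ms4a gene that passed the test against PBS. Of 11 genes tested, 0 were called by edgeR, 0 had an unadjusted p under 0.05, and DESeq2 and limma-voom also called 0. Of all genes tested, 0.442% were called higher and 2.15% lower, and 11.7% had an unadjusted p under 0.05. Log2 changes ran from -1.51 to 1.36, with adjusted p of 0.684 to 0.990. Single libraries decide the values of genes with few counts: without PBS replicate 3 the fitted change of Ms4a4b was 4.62 (adjusted p = 0.111 by edgeR), and without LowDose replicate 2 that of Ms4a4c was -2.72. With the replicate number as a block, 62 listed genes were called in place of 41, and still 0 Ms4a genes. The genes with the best counts had the narrowest intervals of the family for the ratio of LowDose to PBS. These still reached down to 0.673 and up to 1.78. Ms4a6d had 0.83, 1.05 and 0.75 FPKM in LowDose and 0.85, 1.30 and 0.80 FPKM in PBS, a ratio of 0.927 with a counting interval of 0.673 to 1.28. Ms4a6b had 0.58, 0.71 and 0.55 FPKM in LowDose and 0.39, 0.48 and 0.60 FPKM in PBS, a ratio of 1.11 with an interval of 0.776 to 1.58. Ms4a6c had 0.39, 0.37 and 0.44 FPKM in LowDose and 0.36, 0.34 and 0.35 FPKM in PBS, a ratio of 1.13 with an interval of 0.724 to 1.78. It was the 1 member of 11 whose LowDose libraries all lay above PBS, as did 6.63% of all genes tested. Ms4a7 had 0.13, 0.33 and 0.20 FPKM in LowDose and 0.25, 0.29 and 0.60 FPKM in PBS, a log2 change of -0.59 ± 0.58 (adjusted p = 0.825 by edgeR). Ms4a4c had 0, 0.29 and 0 FPKM in LowDose, and Ms4a4b had 0.02, 0.06 and 0.01 FPKM. The summed family level was 2.24, 3.16 and 2.27 FPKM in LowDose, with Ms4a6d, Ms4a6b and Ms4a6c highest in that order and their libraries apart. For the other members the PBS and LowDose counts were too few to show a difference at this depth. These intervals cover counting error only. Among the marker lists, LowDose differed from PBS in 9 of the 11 striatal markers, all lower, from Ppp1r1b at -0.89 ± 0.23 to Adora2a at -1.79 ± 0.30, in Cst7, a protease inhibitor of activated microglia, at 1.76 ± 0.49, in Eomes, a cytotoxic cell factor, at -3.89 ± 1.04, and in Cd209a, a dendritic cell lectin, at 3.24 ± 0.91. The calls of Cst7, Eomes and Cd209a rest on few counts. Cst7 had 17 counts in PBS and 60 in LowDose, where its libraries spread widely (0.99 ± 0.82 CPM, SD). Eomes had 19 counts in PBS and 1 in LowDose, and Cd209a had 3 and 34. Under each scaling within the listed genes, 0 marker genes were called in LowDose against PBS.

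**Figure D4:**
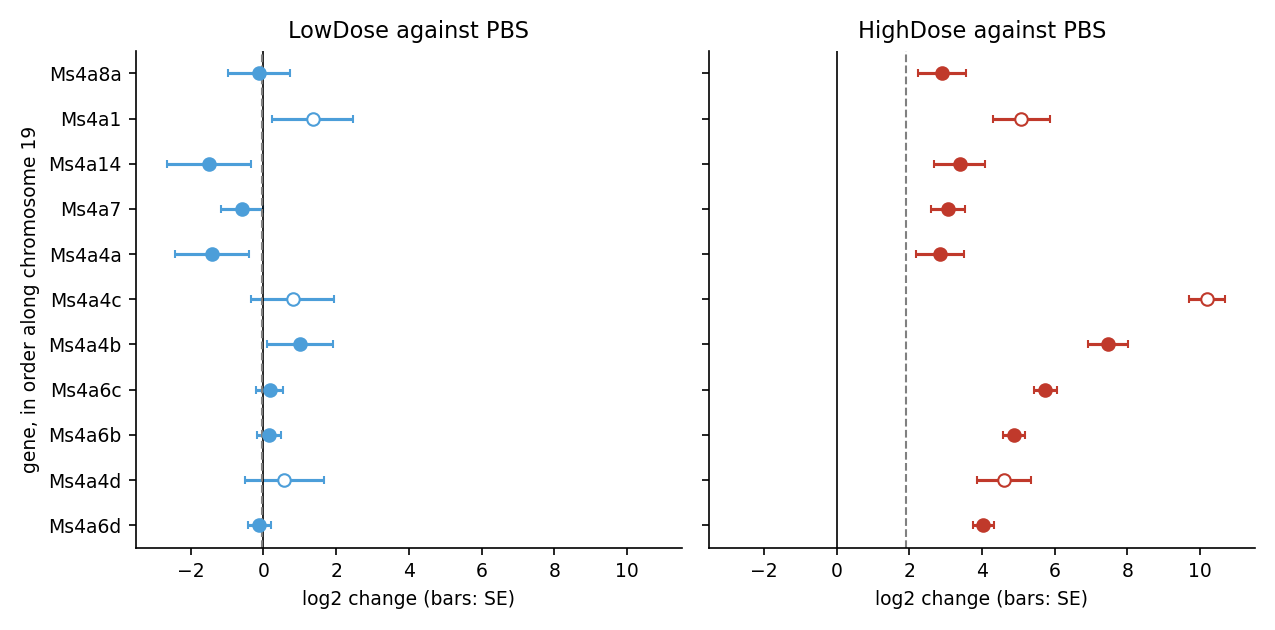
Log2 change of the 11 tested genes against PBS (x axis) with the standard error (bars), for LowDose on the left and HighDose on the right, genes in order along chromosome 19. Open points rest on 3 or fewer PBS counts, and the dashed line is the median of all genes tested (-0.03 for LowDose, 1.90 for HighDose). The LowDose values straddle 0, and all HighDose values lie to the right of the dashed line.

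HighDose also differed from LowDose directly, in a comparison that shares its HighDose libraries with the one against PBS. Of the 11 genes, all 11 were called higher, against 88.1% of all genes tested, and 0 were called lower, against 7.08%. A count of 11 of 11 is near this background. Apart from Ms4a6b, Ms4a6c and Ms4a6d, the members reached the filter's level of 0.461 CPM in 0 LowDose libraries. They entered this comparison through their HighDose values. The median log2 change was 4.26 for the members and 1.88 over all genes tested. Ms4a4c had 3019 counts in HighDose and 4 in LowDose, a ratio of 730 with a counting interval of 285 to 2683, and all 4 LowDose counts came from replicate 2. The fitted log2 change of 9.39 was 12.91 without that library and 8.78 without LowDose replicate 1. Ms4a4b changed by 6.46 ± 0.49, with 7.38 when LowDose replicate 2, which held 6 of 9 counts, was left out. Ms4a6c changed by 5.56 ± 0.31, Ms4a6b by 4.74 ± 0.30 and Ms4a6d by 4.15 ± 0.30. Ms4a8a changed by 3.02 ± 0.66, a call that ended under scaling within the listed genes, with adjusted p of 0.0786 to 0.120 by edgeR. As in the comparison with PBS, such scaling cannot decide this call. Ms4a4a had 66 counts in HighDose and 3 in LowDose, a ratio of 21.3 with an interval of 6.97 to 106.

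The HighDose libraries differed among themselves. For 10 of 12 genes replicate 1 had the lowest CPM, the exceptions being Ms4a8a and Ms4a4d. Of the 1366 genes called higher in HighDose than in PBS, 85.9% were also lowest in replicate 1, with a median ratio of 1.32 for replicate 2 to replicate 1 and of 1.58 for replicate 3 to replicate 1. Ms4a7 had ratios of 2.40 and 2.48, and Ms4a6d had 1.10 and 1.54. Ms4a8a ran the other way in replicate 3, at 0.512 of its replicate 1 level. Across the 9 libraries, and as a description in which the step between HighDose and the other groups is shared by all genes, Pearson's r of log2(CPM + 0.5) between members lay between 0.835 (Ms4a8a with Ms4a7) and 0.9985 (Ms4a4b with Ms4a6b).

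Of 11 named partners and signalling genes, 6 were listed, and all 6 were called higher in HighDose than in PBS, near the 86.3% of all genes tested. They were Clec7a, the receptor Dectin-1, at 3.72 ± 0.40, Fcer1g, the signalling chain of Fc receptors, at 2.57 ± 0.24, the kinases Lyn at 2.02 ± 0.23 and Syk at 1.26 ± 0.26, Tnfrsf18 at 1.65 ± 0.49 and Tyrobp, the adaptor of TREM2, at 1.15 ± 0.22. Under TMM scaling within the listed genes Tyrobp and Syk were lower instead, at -0.54 and -0.45, and Tnfrsf18 was no longer called, at -0.04. TMM takes most genes as unchanged, whereas 1581 of the 1710 listed genes differed at least 2-fold between HighDose and PBS. It therefore cannot decide the direction of these genes. Of the 25 type I interferon-stimulated genes, all 25 were listed and called higher, again beside 86.3% of all genes tested, from the nucleotide kinase Cmpk2 at 3.44 ± 0.24 to the antiviral GTPase Mx1 at 9.71 ± 0.42. In LowDose against PBS, 0 of these 6 and 0 of these 25 genes were called. Of all genes tested, only 0.442% were called higher and 2.15% lower there, so these counts are near the background.

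By likeness over the 9 libraries, using 1507 named genes, the genes closest to Ms4a4c were Gbp3, Ly6c2 and Gbp6 with r of 0.999 each. Ms4a4b was closest to Cmpk2, Ifi27l2a and Trib3, with r of 0.998. Ms4a6c was closest to Dtx3l, Apol9a and Zc3hav1, with r of 0.999. Ms4a6b was closest to Sp110, Bst2 and Stat2, and Ms4a6d to Oas1g, Ifi205 and Casp4, with r of 0.998 to 0.999. Ms4a7 was closest to Ostf1, Dyrk4 and Klk6, at 0.991 to 0.994. Ms4a1 was closest to Myd88, Daxx and Socs3, at 0.997 to 0.998, and Ms4a14 to Cd86, Igsf6 and Dock2, at 0.993 to 0.994. Among the genes closest to Ms4a4a were Hist1h4m and Gvin1, at 0.986 to 0.991. Ms4a4d was closest to Tnf, Hhipl2 and Ccl4, at 0.990 to 0.995, and Ms4a8a to Scin, Tmem236 and Klre1, at 0.959 to 0.971. These values share that step too: r was over 0.95 for 55.1% of the 1507 genes with Ms4a4c, 42.6% with Ms4a7 and 0.464% with Ms4a8a.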

How the data were processed

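RNA-seq of 9 libraries was analysed, 3 each from PBS, LowDose and HighDose brains. The authors deposited 1 table of 1710 genes with estimated counts and FPKM per library. The build mm10 and the tools DESeq2 and edgeR are named per the submitters' processing notes; which aligner and counter made the table is not given in the sources used. Per the values, the deposited counts are not all whole (7.66 to 14.0% of values per library) and were rounded. The listed genes held 1.34 to 6.04% of the reads, so the library totals were recovered from deposited count, FPKM and transcript length of 23 to 68 single-transcript genes per library and used as library sizes. Genes were tested with edgeR 4.0.16 (quasi-likelihood F-test, 3 groups in 1 model, filterByExpr with a minimum count of 10, Benjamini-Hochberg over 1583 genes, threshold 0.05) in R 4.3.3. Standard errors are the log2 change divided by the root of F. FPKM values were used as deposited for levels. Alternatives used DESeq2 1.42.0, limma 3.58.1 (voom, and log2(FPKM + 0.1)), other scalings and filters, and each library left out in turn. Every listed Ms4a gene is named, with the 3 genes of highest r to a member and the extremes of each marker list among genes called against PBS; a gene that this rule names is not reported here. The members, the 14 gene lists and the tests were chosen with earlier results of these data known. The test was checked on simulated data, in which fewer genes changed than in HighDose, equally up and down, and by less than the members. Only genes with more than a few PBS counts were changed there. The check therefore does not cover members with few PBS counts. Same-numbered PBS and LowDose libraries deviated together from their group means (r of 0.137 to 0.247 in 3 of 3 pairs, against -0.147 to 0.013 for other pairs). This hint of pairing came from the data and not the labels. The main tests did not use it, and the replicate number served as a block only in an alternative. With HighDose, r was over 0.1 in 1 of 3 same-numbered pairs of either other group.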

Additional observations from a re-analysis of the deposited data

How the results depend on the processing

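Of 673 values of single Ms4a genes under 21 alternatives, 654 kept sign and side of the threshold and 9 were no longer past it (Ms4a8a and Ms4a4a, all when libraries were scaled on listed genes alone). The other 10 turned sign in LowDose against PBS, in 5 genes and none past the threshold. With at least 1 CPM in 3 libraries, 7 members were called in HighDose against PBS and 7 in HighDose against LowDose, since only 7 were then tested; without a filter 12 were called in each. Leaving out each library gave 11 and 11 calls, and 0 in LowDose against PBS. Of all listed genes, 41 were called in LowDose against PBS (7 higher, 34 lower); TMM scaling within the listed genes gave 6, DESeq2 size factors 6, the sum of listed counts 11, and adjustment over all 55450 annotated genes, an alternative chosen after seeing the data, 8. Leaving out 1 library gave 26 (without LowDose replicate 2) to 79 (without LowDose replicate 1). In HighDose against PBS, TMM scaling gave 600 genes higher and 464 lower, against 1366 and 169. The medians of all genes and of the members were then 0.19 and 2.97. TMM takes most genes as unchanged, whereas 1581 of the listed genes differed at least 2-fold between these groups. Leaving out a library moved single members by over 1.5 times where the PBS or LowDose counts were few. Without PBS replicate 1 the log2 change of Ms4a4d in HighDose against PBS was 5.52; that of Ms4a14 was 4.28 without PBS replicate 2 and 2.79 without PBS replicate 3. In HighDose against LowDose, Ms4a4d gave 4.67 without LowDose replicate 2 and Ms4a4a 5.03 without LowDose replicate 1.

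As a hint from the data, 8 of 9 libraries correlated best with a library of their own replicate number. With the replicate block, 11 members were called in HighDose against either other group and 0 in LowDose against PBS, where 62 listed genes were called.

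Depth limits the members other than Ms4a6b, Ms4a6c and Ms4a6d in PBS and LowDose, where their counts were few.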
